A study of Mus musculus with 9 samples.

Results

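The Fos and Jun families, the Egr factors and the small immediate early response (Ier) genes were followed in mouse bone marrow-derived macrophages given a prostaglandin or a related compound. The 10 genes, taken by symbol from a table of 18049, were Fos, Fosb, Fosl2, Jun, Junb, Jund, Egr1, Egr2, Ier2 and Ier3, and all 10 were listed. Macrophages grown from the marrow of C57BL/6 mice aged 8 weeks, with no allele or other agent named, were kept in RPMI medium. Of the 9 libraries, 3 came from cells that had 1 µM 15d-PGJ2 for 6 h, 3 from cells that had a compound written 15d-PGJ2-PC at the same dose and time, and 3 from controls. 15d-PGJ2 is a cyclopentenone prostaglandin, an electrophile that reacts with protein thiols. The labels do not spell out PC and do not say whether the libraries of a group came from separate animals or cultures, so each p-value here reflects library-to-library spread that could be technical.

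AP-1 is a dimer of basic leucine zipper proteins. Jun proteins pair with each other or with Fos proteins, whereas Fos proteins need a Jun partner, and the mix of subunits sets which genes a dimer activates or represses. Egr1 and Egr2 are zinc finger factors with GC-rich binding sites. Most of these genes are called immediate early because growth factors, stress or microbial products can switch them on without new protein synthesis. Mitogen-activated protein (MAP) kinases and the serum response factor are among the routes. Transcripts of such genes rise and decay quickly, so a single late time point shows what remains or is sustained rather than the first burst.

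Levels are given as FPKM, a read level scaled to transcript length and library size, which can be compared between genes. Low values stepped by single reads and placed the depth near 5.17 M reads per library (quartiles over 132 genes 3.74 and 5.42 M). At that depth Jun, Junb and Jund each rested on 501 to 814 reads in a library and Ier3 on 107 to 314. Fosl2 had 95 to 183 reads, Fos 30 to 88, Ier2 48 to 78 and Egr1 19 to 44. Egr2 had 5 to 14 reads and Fosb 0 to 4. Summed FPKM ran from 469548 to 492998 per library, with 14459 to 15277 genes above 0. All 11 macrophage markers listed (Adgre1, Csf1r, Cd68 and others) were above 0 in every group. With so many genes above 0 in each library, that alone does not establish cell identity. The summed level of the 11 markers was 7425 to 7683 FPKM in controls, 5733 to 6110 with 15d-PGJ2 and 6680 to 6859 with 15d-PGJ2-PC.

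Of the 8 members with at least 1 FPKM in at least 3 libraries, 4 rose with 15d-PGJ2 (Ier3, Fosl2, Jund and Jun), 1 fell (Fos) and 3 did not pass the test. With 15d-PGJ2-PC, 1 rose (Ier3), 2 fell (Fos and Egr1) and 5 did not pass. Between the compounds 3 members were lower with 15d-PGJ2-PC (Egr1, Ier3 and Fosl2), 5 did not pass and none was higher. The test was limma's moderated test on log2(FPKM + 1), fitted to all 11309 tested genes with Benjamini-Hochberg adjusted p under 0.05, and every adjusted p here comes from it. It called 47.2% of all tested genes for 15d-PGJ2 against control (22.2% higher, 25.0% lower), 27.8% for 15d-PGJ2-PC against control (13.8% higher, 14.1% lower) and 20.6% between the compounds (12.3% higher, 8.30% lower). The members' counts of 5, 3 and 3 of 8 are read beside those shares, and nothing particular to these genes is drawn from them. Their median log2 change was 0.13 with 15d-PGJ2 and 0.00 with 15d-PGJ2-PC, and that between the compounds was -0.16, where all tested genes had medians of -0.02, 0.00 and 0.02. The first 2 comparisons share the control libraries.

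**Figure D1:**
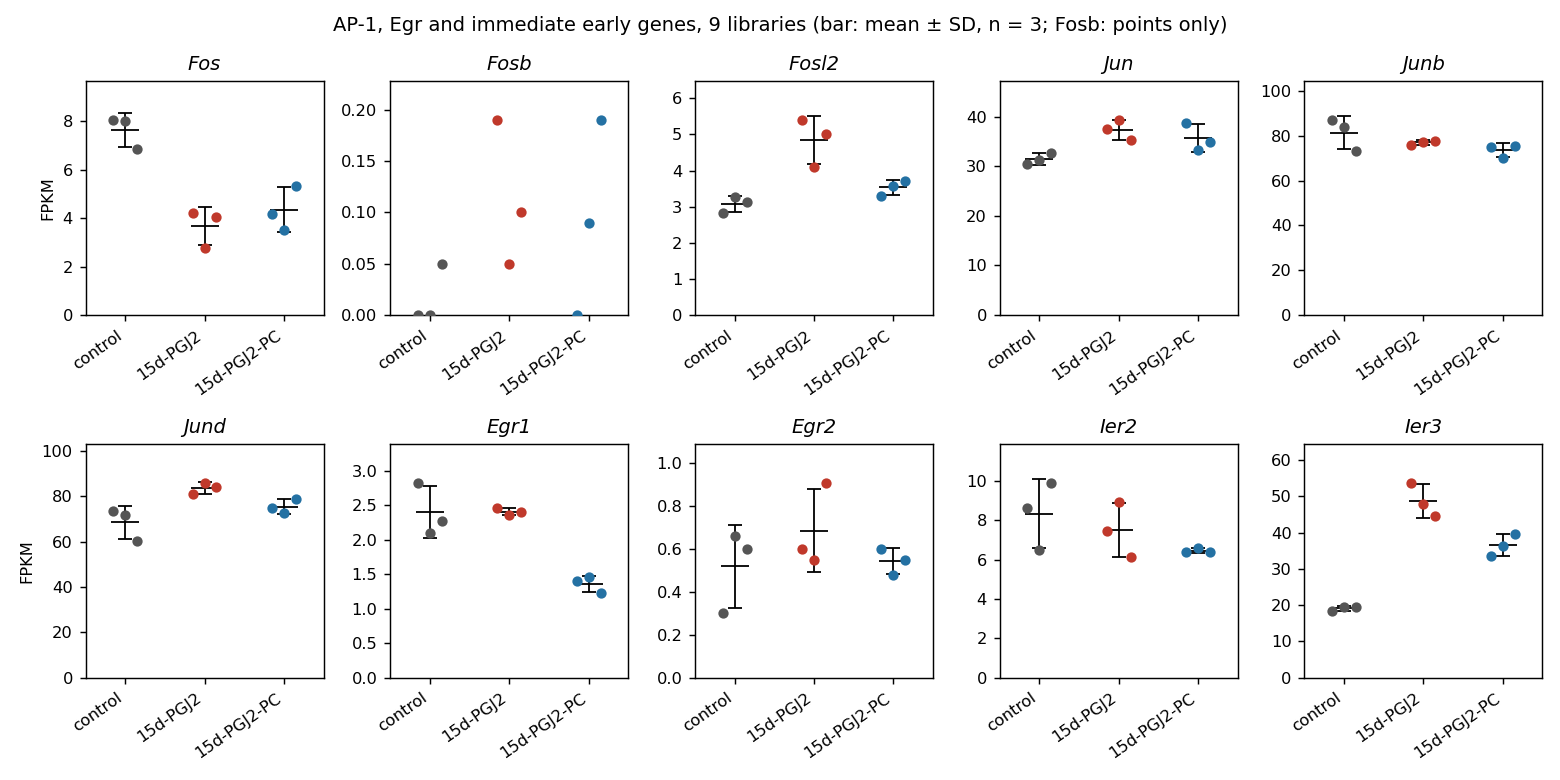
FPKM of each of the 10 genes (vertical axes, linear, from 0) in the 3 libraries of each group (points), with the mean and SD as bars except for Fosb, which is shown by its points. Ier3 is separated in all 3 groups, Fos is highest in the controls, and Egr1 is lowest in the 15d-PGJ2-PC libraries (1.23 to 1.46 FPKM).

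The promoter bases of the genes that the changes turn on are shown first, to set the gene that fell with 15d-PGJ2 beside the 4 that rose. They are the 250 bases before the annotated start, 5′ to 3′ on the gene's strand, from RefSeq on GRCm38.p6, at chr12:85473640-85473889, plus strand for Fos, chr5:32136222-32136471, plus strand for Fosl2, chr4:95052223-95052472, minus strand for Jun, chr8:70697489-70697738, plus strand for Jund and chr17:35821463-35821712, plus strand for Ier3. Capitals mark matches, on either strand, to the motif letters named in the next paragraph.
Fos: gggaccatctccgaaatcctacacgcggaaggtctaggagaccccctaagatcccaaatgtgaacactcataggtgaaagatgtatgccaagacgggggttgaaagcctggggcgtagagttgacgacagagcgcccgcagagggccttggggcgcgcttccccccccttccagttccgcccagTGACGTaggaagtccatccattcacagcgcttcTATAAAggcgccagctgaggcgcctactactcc
Fosl2: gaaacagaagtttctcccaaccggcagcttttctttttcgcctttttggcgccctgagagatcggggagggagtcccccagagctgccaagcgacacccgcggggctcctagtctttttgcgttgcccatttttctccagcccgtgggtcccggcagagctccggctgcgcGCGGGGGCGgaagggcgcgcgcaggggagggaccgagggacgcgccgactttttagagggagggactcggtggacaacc
Jun: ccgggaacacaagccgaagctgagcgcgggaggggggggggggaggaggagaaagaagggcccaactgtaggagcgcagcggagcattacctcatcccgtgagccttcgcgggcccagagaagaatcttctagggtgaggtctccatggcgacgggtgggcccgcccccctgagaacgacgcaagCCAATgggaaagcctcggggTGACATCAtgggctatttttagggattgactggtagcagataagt
Jund: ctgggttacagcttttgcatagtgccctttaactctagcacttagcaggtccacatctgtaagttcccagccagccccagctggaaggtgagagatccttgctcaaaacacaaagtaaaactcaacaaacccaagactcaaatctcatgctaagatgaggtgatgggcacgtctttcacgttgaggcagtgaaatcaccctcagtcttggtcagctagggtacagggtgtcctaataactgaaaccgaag
Ier3: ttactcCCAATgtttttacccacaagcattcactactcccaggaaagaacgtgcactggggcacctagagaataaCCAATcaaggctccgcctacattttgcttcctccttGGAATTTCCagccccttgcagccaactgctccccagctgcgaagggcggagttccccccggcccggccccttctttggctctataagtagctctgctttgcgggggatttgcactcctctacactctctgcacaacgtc

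Windows reaching 250 bases before to 50 after the start were searched for 8 of the 10 genes and for 32851 starts in all. Egr1 and Ier2 were not searched. Egr2 had more windows than any other of the 8, some of them overlapping, so it had more chances of a match. In Fos the capitals are the cyclic AMP response core TGACGT, at -66 to -61 (the annotated start counted as 0), and a TATA box (TATAAA) at -33 to -28. The core, which the full element TGACGTCA contains, was also in Egr2 windows and in 7.51% of all windows, and TATAAA was in Fos, Junb and 13.6% of all. Jun held the variant AP-1 letters TGACATCA at -45 to -38 (3.62% of all windows) and a CCAAT box, which 37.4% of windows hold. Fosl2 and Fosb held the Egr letters GCGGGGGCG, searched with GCGTGGGCG and found in 3.47% of windows. Ier3 held 2 CCAAT boxes and GGAATTTCC, letters of the NF-κB type chosen after the window was read, which 0.317% of windows hold. The Jund window held none of the motifs searched. The gene coordinates that place it span more than the 1668 bases of the single-exon Jund transcript. The window may therefore not lie next to the start of that transcript. Within these windows Egr2 alone among the 8 held a CArG box, the site of serum response factor (searched by its usual consensus, 1.63% of windows). It was also alone in holding an antioxidant response core (TGACNNNGC or TGAGNNNGC, 27.8% of windows), a match of which overlaps its cyclic AMP core, and the Ets letters CCGGAA (14.9%). The AP-1 site proper (TGACTCA or TGAGTCA, 5.2% of windows), the full TGACGTCA (1.79%) and the heat shock element (GAANNTTCNNGAA, 0.603%) were not among the letters of the 8 genes' windows. A match is a description of letters and no evidence of binding. Bases outside the windows, and all of Egr1 and Ier2, were not searched. A motif missing here may therefore lie elsewhere in these genes.

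Among the Fos genes, Fos fell and Fosl2 rose with 15d-PGJ2. Fos encodes c-Fos, the classical inducible partner of Jun (Entrez 14281, GRCm38 chromosome 12, 85473890 to 85477274). It was at 8.05, 8.02 and 6.85 FPKM in the controls, at 4.2, 2.77 and 4.04 with 15d-PGJ2 and at 4.19, 3.52 and 5.34 with 15d-PGJ2-PC. Each treated library lay below each control, and the treated groups overlapped. The mean went from 7.64 ± 0.684 FPKM to 3.67 ± 0.784 with 15d-PGJ2 (SD, n = 3 per group), 0.48 times the control, and to 4.35 ± 0.92 with 15d-PGJ2-PC, 0.569 times the control. On the log2(FPKM + 1) scale, which understates changes of low genes, the differences were -0.90 (SE 0.15, adjusted p = 0.00064) and -0.70 (adjusted p = 0.0058). Between the compounds Fos differed by 0.20, with a 95% interval of -0.14 to 0.54 (adjusted p = 0.412).

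Several marker sets of other cell types were highest in the controls, as Fos was. Of all tested genes, 22.2% rose and 25.0% fell with 15d-PGJ2, and 13.8% rose and 14.1% fell with 15d-PGJ2-PC. Summed over 10 stromal markers the level was 38.2 to 44.6 FPKM in controls, 8.88 to 11.8 with 15d-PGJ2 and 8.52 to 8.86 with 15d-PGJ2-PC, and all 6 tested fell with each compound. Over 9 of 10 skin markers listed it was 26.9 to 30.9, 0.68 to 1.03 and 0.51 to 1.48, and all 7 tested fell with each. With 15d-PGJ2, 8 skin markers, Krt5, Krt14 and Lor among them, were at 0 in all 3 libraries, as were 7 with 15d-PGJ2-PC. Over 4 of 5 erythroid markers the range was 19.6 to 31.8 FPKM in controls and at most 0.91 in treated libraries. Of the 11 macrophage markers 10 fell with 15d-PGJ2 and 7 with 15d-PGJ2-PC, and in bulk RNA fewer cells of a type and less RNA per cell cannot be told apart. Neutrophil markers summed to 27.5 to 30.9, 13.5 to 16.6 and 19.9 to 26.2 FPKM and endothelial markers to 39.6 to 42.1, 23.7 to 26.6 and 34.4 to 39.5 in controls, with 15d-PGJ2 and with 15d-PGJ2-PC. Of 4 tested neutrophil markers 1 rose and 3 fell with 15d-PGJ2, and 1 rose and 1 fell with 15d-PGJ2-PC. Of 2 tested endothelial markers 1 rose and 1 fell with 15d-PGJ2, and neither passed with 15d-PGJ2-PC. Dendritic markers stayed within 1.17 to 1.73 FPKM and lymphocyte markers within 0.07 to 0.83 in all libraries. Egr1 was at 2.40 FPKM in controls, 2.41 with 15d-PGJ2 and 1.36 with 15d-PGJ2-PC. The part of other cell types in the lower Fos of both treated groups and the lower Egr1 of the 15d-PGJ2-PC libraries was not tested.

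Fosl2 encodes Fra-2, a Fos protein without the strong activation domain of c-Fos (Entrez 14284, chromosome 5, 32136472 to 32157840). It was at 2.82, 3.26 and 3.12 FPKM in the controls, at 5.40, 4.10 and 5.02 with 15d-PGJ2 and at 3.30, 3.58 and 3.72 with 15d-PGJ2-PC. The 15d-PGJ2 libraries lay above all others, and the 15d-PGJ2-PC libraries lay just above the controls. The rise with 15d-PGJ2 was 1.58-fold (0.52 on the log2 scale, SE 0.11, adjusted p = 0.00244), and the difference with 15d-PGJ2-PC did not pass (0.16, 95% interval -0.08 to 0.40, adjusted p = 0.321). Fosl2 was 0.73 times as high with 15d-PGJ2-PC as with 15d-PGJ2 (-0.36 on the log2 scale, adjusted p = 0.0381). That call was lost without 15d-PGJ2 replicates 1 or 3 (0.125 and 0.111), without 15d-PGJ2-PC replicates 1, 2 or 3 (0.114, 0.0835 and 0.0616), in the 6 libraries of the contrast alone (0.0581), with no filter (0.0796) and with the replicate number as a block (0.0649), in a range of 0.018 to 0.125 over all alternatives.

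The order of the 2 genes turned over within libraries, a comparison chosen after the values were seen. Fos was the higher of the 2 in 3 of 3 control libraries, in 0 of 3 with 15d-PGJ2 and in 2 of 3 with 15d-PGJ2-PC. The ratio of Fos to Fosl2 was 2.5 ± 0.332 in controls, 0.753 ± 0.0681 with 15d-PGJ2 and 1.23 ± 0.229 with 15d-PGJ2-PC (SD, n = 3). No pair of groups overlapped in this ratio, with an exact 2-sided permutation p of 0.1 for each pair, the smallest that 3 against 3 libraries can give. Both genes already set each treated group apart from the controls, in opposite directions. The separation of the ratio from the controls was therefore fixed beforehand and adds no support. The third Fos gene on the list, Fosb, was listed at 0, 0 and 0.05 FPKM in controls, at 0.19, 0.05 and 0.10 with 15d-PGJ2 and at 0, 0.09 and 0.19 with 15d-PGJ2-PC. At 0 to 4 reads a library no difference in Fosb was detectable. Summed over the 3 genes, the Fos level was 10.7 ± 0.643 FPKM in controls, 8.62 ± 1.51 with 15d-PGJ2 and 7.98 ± 1.11 with 15d-PGJ2-PC, against 181 ± 13.5, 198 ± 4.27 and 184 ± 7.74 for the 3 Jun genes.

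The remaining Fos gene, Fosl1, which encodes Fra-1 and is no member of the set of 10, moved further than any of the others. It was at 0.42, 0.74 and 1.06 FPKM in controls, at 4.68, 5.15 and 6.19 with 15d-PGJ2 and at 2.12, 1.81 and 2.14 with 15d-PGJ2-PC. The 3 groups were separate, and limma gave 1.87 with 15d-PGJ2 (SE 0.15, adjusted p = 2.55e-06), 0.81 with 15d-PGJ2-PC (adjusted p = 0.0025) and -1.06 between the compounds (adjusted p = 0.000674). Among the controls only replicate 3 reached 1 FPKM. Fosl1 thus entered the test through the treated libraries, where it is high, and its tests against control carry that limit. With 15d-PGJ2 the means of Fosl1 (5.34 FPKM) and Fosl2 (4.84) both stood above that of Fos (3.67), whereas in controls Fos (7.64) stood above Fosl2 (3.07) and Fosl1 (0.74).

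**Figure D2:**
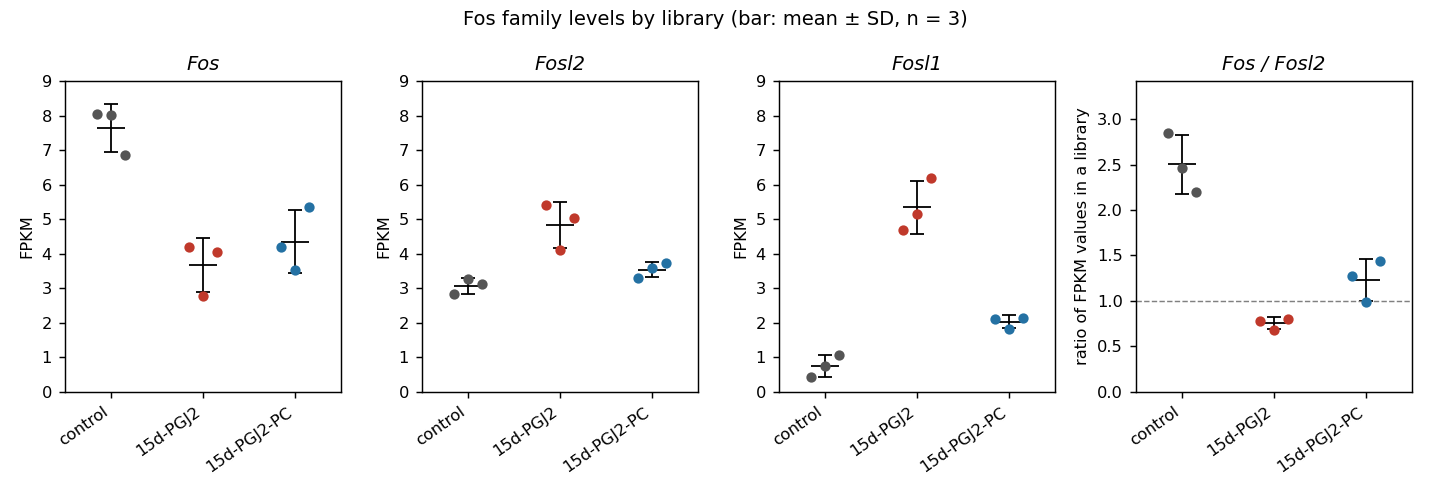
FPKM of Fos, Fosl2 and Fosl1 in each library (first 3 panels, 1 common linear axis) and the ratio of Fos to Fosl2 within a library (last panel, dashed line at 1), with mean and SD over 3 libraries. Fos falls below Fosl2 in all 15d-PGJ2 libraries, where the ratio is 0.676 to 0.805.

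The Jun genes were the most abundant members. Jund and Jun rose slightly with 15d-PGJ2 and Junb did not pass. Jund encodes JunD, the member of the family made constitutively in many cells (Entrez 16478, chromosome 8, 70697739 to 70700616). It was at 73.6, 71.8 and 60.2 FPKM in controls, at 80.8, 85.9 and 84.0 with 15d-PGJ2 and at 74.6, 72.4 and 78.9 with 15d-PGJ2-PC. The 15d-PGJ2 libraries lay above the other 6, and the 15d-PGJ2-PC libraries overlapped the controls. The rise with 15d-PGJ2 was 1.22-fold (0.29 on the log2 scale, SE 0.07, adjusted p = 0.00632), the difference of 15d-PGJ2-PC from control was 0.14 (95% interval -0.02 to 0.29, adjusted p = 0.177) and that between the compounds -0.15 (-0.30 to 0.01, adjusted p = 0.17). The last passed without control replicate 3 (adjusted p = 0.0363, over a range of 0.0363 to 0.36).

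Jun encodes c-Jun, the founding AP-1 subunit and a target of the Jun N-terminal kinases (Entrez 16476, chromosome 4, 95049036 to 95052222). It was at 30.4, 31.1 and 32.7 FPKM in controls, at 37.5, 39.3 and 35.3 with 15d-PGJ2 and at 38.7, 33.2 and 34.9 with 15d-PGJ2-PC. All 6 treated libraries lay above all 3 controls. Jun rose 1.19-fold with 15d-PGJ2 (0.24, SE 0.06, adjusted p = 0.00998). Its ratio to control of 1.13 with 15d-PGJ2-PC did not pass (0.17, 95% interval 0.03 to 0.32, adjusted p = 0.0708) except without 15d-PGJ2-PC replicate 2 (0.0416, over a range of 0.0416 to 0.234). Between the compounds the difference was -0.07, with a 95% interval of -0.21 to 0.07.

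Junb encodes JunB, which can oppose c-Jun at some promoters (Entrez 16477, chromosome 8, 84976909 to 84978748). It was at 87.0, 84.1 and 73.0 FPKM in controls, at 75.9, 77.4 and 77.8 with 15d-PGJ2 and at 75.1, 69.9 and 75.6 with 15d-PGJ2-PC. Control replicate 3 lay inside the treated range and the other 2 controls above it. Junb did not pass with either compound (-0.07 and -0.14, adjusted p = 0.356 and 0.121), but without control replicate 3 it did (-0.15 and -0.22, adjusted p = 0.0241 and 0.00694, over ranges of 0.0241 to 0.983 and 0.00694 to 0.348). The same library held the lowest Jund value. The Jun genes overlap genes on the other strand. Junb shares 7.5% of its exon bases with Prdx2, Jun shares 7.3% with the antisense gene Junos and Jund 52.6% with an antisense gene model. The sources used here do not say that reads were counted by strand, so reads of the shared stretches cannot be told apart. Prdx2 itself was at 88.7, 81.6 and 85.1 FPKM in controls, with 15d-PGJ2 and with 15d-PGJ2-PC.

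Ier3 was the member with the largest change. It encodes a small protein, also called IEX-1, that acts in cell survival and in damping inflammatory signalling (Entrez 15937, chromosome 17, 35821713 to 35822911). Its levels were 18.3, 19.5 and 19.5 FPKM in the controls, 53.7, 47.9 and 44.5 with 15d-PGJ2 and 33.6, 36.4 and 39.6 with 15d-PGJ2-PC. The 3 groups did not overlap in any pair. Against the control mean of 19.1 ± 0.679 FPKM, Ier3 was 2.55-fold higher with 15d-PGJ2 (1.30 on the log2 scale, SE 0.08, adjusted p = 1.94e-07) and 1.91-fold higher with 15d-PGJ2-PC (0.90, adjusted p = 1.15e-05). The compounds differed by -0.40, with a 95% interval of -0.57 to -0.23 (adjusted p = 0.00374). Each of these calls was kept in all 17 alternatives.

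Ier2, which encodes a nuclear protein of the early response, did not pass in any comparison (Entrez 15936, chromosome 8, 84661331 to 84662852). It was at 8.63, 6.46 and 9.90 FPKM in controls, at 7.43, 8.93 and 6.15 with 15d-PGJ2 and at 6.36, 6.61 and 6.39 with 15d-PGJ2-PC. The controls and the 15d-PGJ2 libraries overlapped, and the 15d-PGJ2-PC libraries lay within the range of the 15d-PGJ2 libraries. The 95% intervals were -0.45 to 0.20 for 15d-PGJ2 against control, -0.63 to 0.02 for 15d-PGJ2-PC against control and -0.50 to 0.15 between the compounds. Without control replicate 2, Ier2 passed for 15d-PGJ2-PC (-0.46, adjusted p = 0.0315, over a range of 0.0315 to 0.416).

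Egr1 was lower with 15d-PGJ2-PC than in controls and than with 15d-PGJ2. It encodes a factor that responds to MAP kinase signalling and takes part in monocyte to macrophage differentiation (Entrez 13653, chromosome 18, 34861207 to 34864956). Its levels were 2.83, 2.10 and 2.28 FPKM in the controls, 2.46, 2.36 and 2.41 with 15d-PGJ2 and 1.40, 1.46 and 1.23 with 15d-PGJ2-PC. The 15d-PGJ2-PC libraries lay below the other 6, which overlapped each other. Egr1 was 0.567 times the control with 15d-PGJ2-PC (-0.52 on the log2 scale, SE 0.12, adjusted p = 0.007) and 0.566 times its level with 15d-PGJ2 (-0.53, 95% interval -0.79 to -0.27, adjusted p = 0.00864), calls kept in the 16 alternatives that test the gene. With 15d-PGJ2 the difference from control was 0.01, with a 95% interval of -0.25 to 0.27 (adjusted p = 0.96). These values rest on 19 to 44 reads a library, where counting alone gives a coefficient of variation of 17.6%. The spread within groups was 11.3%, below that level, so the p-values of Egr1 may be too small. The alternatives reuse the same libraries and do not remove this limit.

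Egr2, a relative of Egr1, did not reach the level needed for the test (Entrez 13654, chromosome 10, 67534469 to 67542188). It was at 0.30, 0.66 and 0.60 FPKM in the controls, 0.60, 0.55 and 0.91 with 15d-PGJ2 and 0.60, 0.48 and 0.55 with 15d-PGJ2-PC, with all groups overlapping. With no filter its differences from control were 0.15 (95% interval -0.11 to 0.42) and 0.03 (-0.24 to 0.30).

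**Figure D3:**
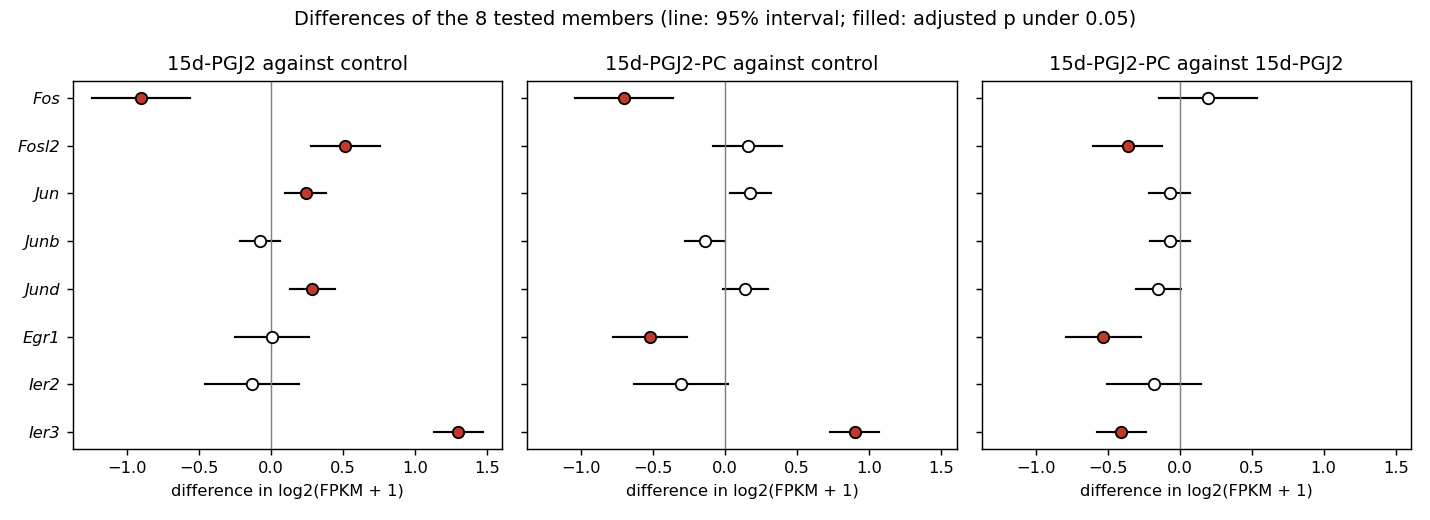
Differences in log2(FPKM + 1) between groups (horizontal axis) for the 8 tested members, with 95% intervals as lines and filled points where the adjusted p is under 0.05. Ier3 and Fos stand away from 0 with both compounds, and Egr1 with 15d-PGJ2-PC only among the comparisons with control.

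Between the compounds, which were given at the same dose and time, 8 members were compared. Egr1, Ier3 and Fosl2 were lower with 15d-PGJ2-PC. For the other 5 the 95% intervals of the difference included 0 and lay within -0.50 and 0.54, which leaves room for differences of that size. The 3 libraries of one compound all lay below those of the other for Fosl2, Junb, Jund, Egr1 and Ier3, each lower with 15d-PGJ2-PC. Of all tested genes, 37.3% had compound groups that did not overlap and 16.7% were lower with 15d-PGJ2-PC in this way. Against control, groups were apart for 5 of 8 members with 15d-PGJ2 (55.1% of all tested genes, 26.3% higher and 28.8% lower) and for 5 of 8 with 15d-PGJ2-PC (41.8%, 20.5% higher and 21.3% lower).

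Gene structure was read from the annotation and not from expression, and it varied among the 10. Jun, Junb, Jund and Ier2 have a single exon, 4 of the 10, where 3.6% of 11034 tested genes do. In the 3′ untranslated region 5 of the 10 hold at least 3 copies of ATTTA, the core of AU-rich elements that speed mRNA decay, against 35.7% of 10472 tested genes. Their density was above the median of tested genes (1.27 per kb) for 8 of the 10. It was highest in Ier3, with 5 copies and 8.16 per kb, and in Fos, with 4 copies and 4.91 per kb. Ier2 has none.

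Other parts of the AP-1 and immediate early programme were read from lists given as counts. Beside them, 22.2% of all tested genes were higher and 25.0% lower with 15d-PGJ2, and 13.8% and 14.1% with 15d-PGJ2-PC. For 15d-PGJ2-PC against 15d-PGJ2 the shares were 12.3% higher and 8.30% lower. Nothing particular to a list is drawn from its counts. Of 8 dimer partners and antagonists, 3 rose with 15d-PGJ2 (Fosl1, Jdp2 and Atf3), 4 fell and 1 did not pass, with a median log2 change of -0.10. With 15d-PGJ2-PC 3 rose, 1 fell and 4 did not pass (median 0.02), and between the compounds 2 were higher, 1 lower and 5 did not pass (median 0.12). Jdp2, a repressor that dimerises with Jun proteins, was at 23.9 ± 0.424 FPKM in controls, 43.4 ± 1.34 with 15d-PGJ2 and 40.1 ± 3.55 with 15d-PGJ2-PC (adjusted p = 1.28e-06 and 1.28e-05). Atf3, a stress-induced factor, rose from 175 to 216 FPKM with each compound (adjusted p = 0.00134 and 0.00265). Batf3, a Jun partner in dendritic cells, fell from 31.0 to 20.5 and 24.6 FPKM. The number that fell with 15d-PGJ2 was 2 without control replicate 1 or 15d-PGJ2 replicates 2 or 3, and the 2 higher between the compounds became 0 without 15d-PGJ2 replicate 2 or 15d-PGJ2-PC replicate 3 or with no filter.

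Of the Egr relatives and their Nab corepressors, 2 of 4 were tested, and Nab2 fell while Nab1 did not pass with either compound. Nab2, which binds and represses Egr proteins and is itself an Egr target, was at 19.0, 18.1 and 19.6 FPKM in the controls, 9.16, 7.75 and 9.06 with 15d-PGJ2 and 9.75, 9.20 and 9.37 with 15d-PGJ2-PC. Both treated groups lay below the controls (-1.05 and -0.93 on the log2 scale, adjusted p = 7.3e-07 and 6.53e-06), and neither gene passed between the compounds. Medians of 2 genes were -0.49, -0.50 and -0.01. Egr3 was at or under 0.19 FPKM in every library.

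Among 22 tested of 26 other immediate early genes, 10 rose, 6 fell and 6 did not pass with 15d-PGJ2 (median 0.08), and 9 rose, 6 fell and 7 did not pass with 15d-PGJ2-PC (median 0.04). Plk3, a stress-responsive polo-like kinase gene, rose from 1.81 ± 0.426 FPKM to 14.3 ± 1.31 and 8.63 ± 0.713. Its relative Plk2 rose from 26.8 to 75.6 and 53.0 FPKM. Ppp1r15a, which encodes the GADD34 subunit that restores translation after stress, rose from 18.8 to 52.0 and 44.0, and the small GTPase gene Rhob from 41.8 to 76.2 and 64.1. Between the compounds 8 were lower with 15d-PGJ2-PC, 1 was higher and 13 did not pass (median -0.21). Of the 8, Ets2, an Ets factor gene, was at 41.5 FPKM with 15d-PGJ2 and 26.7 with 15d-PGJ2-PC (adjusted p = 0.000249). The MAP kinase phosphatase gene Dusp1 was at 48.8 and 35.5 (adjusted p = 0.00324). The 1 higher gene, Btg2, named after its value was seen, fell with both compounds. It was at 27.7 FPKM in controls, 13.2 with 15d-PGJ2 and 15.7 with 15d-PGJ2-PC (adjusted p = 6.85e-07 and 1.61e-05 against control). Its call between the compounds was lost in several alternatives and without control replicate 2, 15d-PGJ2 replicates 1 or 3 or any 15d-PGJ2-PC library.

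**Figure D4:**
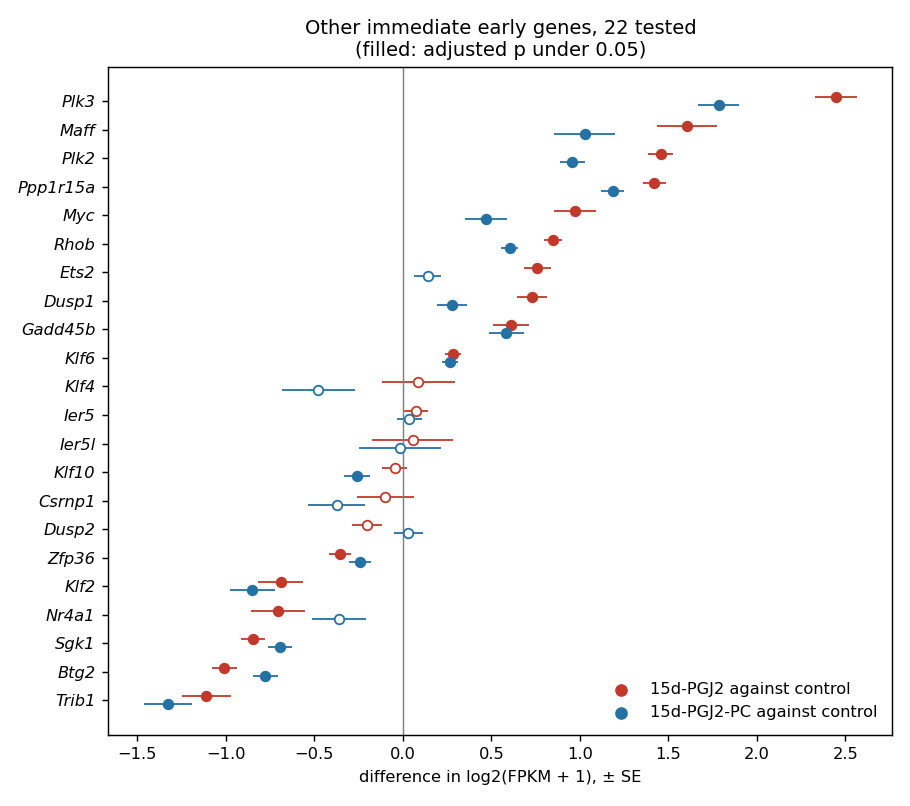
Differences from control in log2(FPKM + 1) with SE for 22 other immediate early genes, ordered by the value for 15d-PGJ2, with filled points where the adjusted p is under 0.05. Both compounds are compared with the same controls, and the genes run from Plk3 at 2.45 to Trib1 at -1.11 with 15d-PGJ2, the ends of the range.

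Of 25 kinases and serum response or CREB factors upstream of these genes, 9 rose, 9 fell and 7 did not pass with 15d-PGJ2 (median 0.02), and 5 rose, 6 fell and 14 did not pass with 15d-PGJ2-PC (median -0.10). Map2k3, a kinase of the p38 branch, rose from 17.9 to 45.2 and 35 FPKM. The 2 myocardin-related coactivators of serum response factor went opposite ways: Mkl2 rose from 9.86 to 26.7 and 15.6 FPKM and Mkl1 fell from 47.7 to 27.1 and 32.1. Srf itself, named after its value was seen, fell from 20.6 to 13.2 and 16.3 FPKM (adjusted p = 5.93e-05 and 0.00865). Between the compounds 4 were higher, 5 lower and 16 did not pass (median -0.07). The number higher was 2 without 15d-PGJ2 replicates 2 or 3 or 15d-PGJ2-PC replicates 1 or 2, and the number lower was 3 without 15d-PGJ2-PC replicate 2.

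Of 11 textbook AP-1 targets, 1 rose, 5 fell and 5 did not pass with 15d-PGJ2 (median -0.02). With 15d-PGJ2-PC 1 rose, 2 fell and 8 did not pass (median -0.08), and between the compounds 2 were higher, 1 lower and 8 did not pass (median 0.12). The cyclin gene Ccnd1 fell from 8.05 to 2.40 and 3.24 FPKM and the gelatinase gene Mmp9 from 37.9 to 27.4 and 29.8. Plau, the urokinase gene, fell from 17.6 to 9.02 FPKM with 15d-PGJ2 and was at 16.1 with 15d-PGJ2-PC (adjusted p = 2.82e-06 and 0.273), and the compounds differed (adjusted p = 4.36e-05). Its receptor gene Plaur was at 22.1, 26.8 and 21.9 FPKM and differed between the compounds (adjusted p = 0.00345). The 1 gene that rose with 15d-PGJ2-PC, the elastase gene Mmp12, did not pass without 15d-PGJ2-PC replicate 2, and without replicate 3 the number that rose was 2. The 2 higher between the compounds became 1 without 15d-PGJ2 replicates 1 or 2 or 15d-PGJ2-PC replicate 2.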

How the data were processed

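RNA was measured in 9 libraries, 3 per group. The authors deposited FPKM values with 2 decimals, all 9 libraries in 1 table, per the file headers. Reads were aligned with BWA to mm10, per the submitters' processing notes, and the sources used here name no counting tool, strand setting or version. Dates standing for 23 gene symbols were restored by Entrez number. The 11309 genes reaching 1 FPKM in 3 or more libraries were compared on log2(FPKM + 1) with limma 3.58.1 (R 4.3.3), with an intensity trend, all 9 libraries and no covariate, 2-sided, and Benjamini-Hochberg adjustment over all tested genes. The script was tested on simulated data. Read numbers are FPKM times length times the depth inferred from steps between low values (tolerance 0.06 of a step), so they are approximate. Lengths, exons and 3′ untranslated regions came from GENCODE M21, coordinates and promoters from RefSeq, both on GRCm38. Of the genes in the lists, up to 4 per list and contrast with the smallest p are named, and others are said to be chosen later. A gene that this rule would name is not reported here. The members and lists were chosen with earlier results of these data known. Alternatives were a pseudocount of 0.1, no filter, a filter of 5 FPKM, no trend, the 6 libraries of a contrast, 2 other scalings, a replicate block and leaving out each library.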

Additional observations from a re-analysis of the deposited data

How the results depend on the processing

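No member changed direction with a call in any alternative, and of the members called only Fosl2 between the compounds lost its call in any. The number of members lower with 15d-PGJ2 was 1 to 2 when each library was left out in turn, and the number higher with 15d-PGJ2-PC was also 1 to 2. In the same alternatives 2 to 3 members were lower with 15d-PGJ2-PC than in controls, and 2 to 4 lower than with 15d-PGJ2. With a filter of 5 FPKM, which removes Egr1 and Fosl2 from the test, 1 member was lower with 15d-PGJ2-PC than in controls and 1 lower than with 15d-PGJ2. Median-ratio scaling and quantile normalization moved the median of all tested genes by under 0.1 on the log2 scale and changed no call of a member.

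Deviations from the group means of libraries with the same replicate number correlated at -0.043 to 0.052 over genes, and those with different numbers at -0.07 to 0.098. In pairs with a control, same-numbered libraries gave 0.014 to 0.052 and the others -0.057 to 0.037. Values this small do not settle whether libraries were paired. With the replicate number as a block, 2 members were lower with 15d-PGJ2-PC than with 15d-PGJ2 (Fosl2 had adjusted p = 0.0649), and no other call of a member changed. Precision for Fosb and Egr2 is limited by depth, and Fos, Egr1 and Ier2 rest on at most 88 reads a library. The list counts and the ratio of Fos to Fosl2 were put through alternatives chosen after seeing the data: 36 of 510 list counts moved by over 1.5 times, and the ratio kept its direction in all 30. Leaving out a library could not reverse the ratio, since no pair of groups overlapped in it.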

Other observations

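The genes most like each member over the 9 libraries were found by Pearson's r of log2(FPKM + 1) among the tested genes, as a description. Genes with Rik, numbered Gm, Mir, Snor, LOC or -ps names were left out of this search. Differences between the groups and within them both enter it and were not separated. Ier3 was most like Slc11a1, the phagosomal metal transporter gene (r = 0.996; 343, 431 and 403 FPKM in the controls, with 15d-PGJ2 and with 15d-PGJ2-PC), and Jade1 (r = 0.995). Fosl2 was most like Esam, an adhesion molecule gene at 1.29, 5.89 and 1.98 FPKM (r = 0.991), and Agpat4 (r = 0.976). Egr1 was most like Nhp2l1, at 42.9, 43.0 and 35.7 FPKM (r = 0.985), and Tm9sf2 (r = 0.945). For Fos these were Parp8 (r = 0.977) and Dhx16 (r = 0.971), for Jun Ubxn8 and Mbp (r = 0.967 and 0.959), for Junb Mrpl24 and Arl3 (r = 0.966 and 0.935) and for Jund Srsf4 and Napg (r = 0.964 and 0.963). Ier2, with the widest spread within groups of the tested members, had the weakest likeness, to Eif4a1 and Slc12a2 (r = 0.906 and 0.902).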
